A study of Mus musculus with 9 samples.

Results

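The interferon-inducible GTPases Gbp2, Gbp3, Gbp4, Gbp5, Gbp7, Irgm1, Irgm2, Igtp, Iigp1 and Tgtp1 were followed across 9 mouse spleen libraries. These 10 genes were taken by name from the raw count table, once its Ensembl identifiers had been matched to symbols, and stand among 21965 genes counted. The rule that names them uses no measured value, though they were chosen with earlier results of these data known. A filter on low counts kept 8 of the 10 for testing, among 7719 genes tested in all. Iigp1 and Tgtp1 fell below it and are given as values. The libraries came from mice aged 16 weeks, 3 per group. The first group was female F1 offspring of NZB x NZW (BWF1), prone to lupus according to the series title. The second was BWF1 males, and the third was BALB/c females of an unrelated inbred strain, both named there as not prone. No animal carried a transgene or received a treatment according to the labels. BWF1 males and BALB/c females differ in both sex and strain, and no BALB/c males were analysed here. The labels conflict on the material, since the series text speaks of splenocytes and the sample labels of macrophages sorted for CD11b and F4/80.

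Interferon-gamma is made mainly by natural killer cells and T cells. Its receptor activates the kinases Jak1 and Jak2. Genes it induces often carry a gamma-activated site (GAS), and newly made Irf1 and related factors bind the interferon-stimulated response element (ISRE). The guanylate-binding proteins and immunity-related GTPases are among the genes most strongly induced this way in macrophages. They coat and disrupt the vacuoles of intracellular bacteria and parasites. Irgm1, Irgm2 and Igtp are the regulatory members that sit on the cell's own membranes, whereas Iigp1 and Tgtp1 are effectors loaded onto pathogen vacuoles.

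The promoters of these genes share the elements through which interferon acts, which the choice of genes did not use. RefSeq (GRCm38.p6) windows of 300 bases, 250 before and 50 after the annotated start, were found for 8 of the 10 genes, all but Gbp4 and Iigp1. For Irgm2, Gbp5 and Tgtp1 the window lies well inside the GENCODE gene span given below. The outermost annotated start of these genes was therefore not searched. A pair of GAAA half-sites spaced by any 2 bases (GAAA-NN-GAAA), searched on both strands, lay in 8 of these 8 windows, against 3.99% of 27025 genes with a window. The palindrome TTCNNNGAA, also searched on both strands, lay in 5 of the 8, against 9.55% of genes. The stretches that hold the half-site pair are printed here because they let the arrangement be compared between genes. Each is written 5′ to 3′ along the gene's strand, with 10 bases on either side and the matched bases in capitals. A pair on the opposite strand reads as TTTC-NN-TTTC.
Gbp2: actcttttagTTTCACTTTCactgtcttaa
Gbp3: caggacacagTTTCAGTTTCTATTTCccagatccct
Gbp5: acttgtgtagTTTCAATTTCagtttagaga
Gbp7: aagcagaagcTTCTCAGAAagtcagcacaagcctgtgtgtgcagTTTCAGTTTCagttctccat
Irgm1: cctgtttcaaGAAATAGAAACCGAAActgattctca
Irgm2: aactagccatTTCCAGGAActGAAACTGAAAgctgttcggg
Igtp: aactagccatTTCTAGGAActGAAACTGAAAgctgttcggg
Tgtp1: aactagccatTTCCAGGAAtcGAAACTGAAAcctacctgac

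The stretches lie at chr3:142620594-142620623 (plus strand) for Gbp2, chr3:142559989-142560024 (plus) for Gbp3, chr3:142496759-142496788 (plus) for Gbp5 and chr3:142530239-142530302 (plus) for Gbp7. They lie at chr11:48871425-48871460 (minus) for Irgm1, chr11:58214892-58214932 (plus) for Irgm2, chr11:58199501-58199541 (plus) for Igtp and chr11:48992304-48992344 (minus) for Tgtp1. Gbp3 and Irgm1 each held 2 overlapping pairs, so that 3 half-sites followed each other. In Irgm2, Igtp and Tgtp1 the palindrome stood 2 bases before the pair. Only 5 of 27025 genes (0.0185%) held that arrangement in the window, and all 5 lie on chromosome 11: Igtp, Irgm2, Tgtp1, its near copy Tgtp2 and the predicted gene Gm12185. The search used the spacing seen in Irgm2, Igtp and Tgtp1, so that these 3 match was fixed in advance. Tgtp1 also shares exon bases with Gm12185, so the 5 genes need not be separate occurrences. The Igtp and Irgm2 windows are alike beyond the motifs. Aligned without gaps at the single best offset, 184 of 270 bases were identical (68.1%). The upstream parts also match at a different offset, which this alignment does not count, so the share understates the likeness. A match describes letters in these windows on the reference strain's genome and shows neither binding nor the alleles of these mice.

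**Figure D1:**
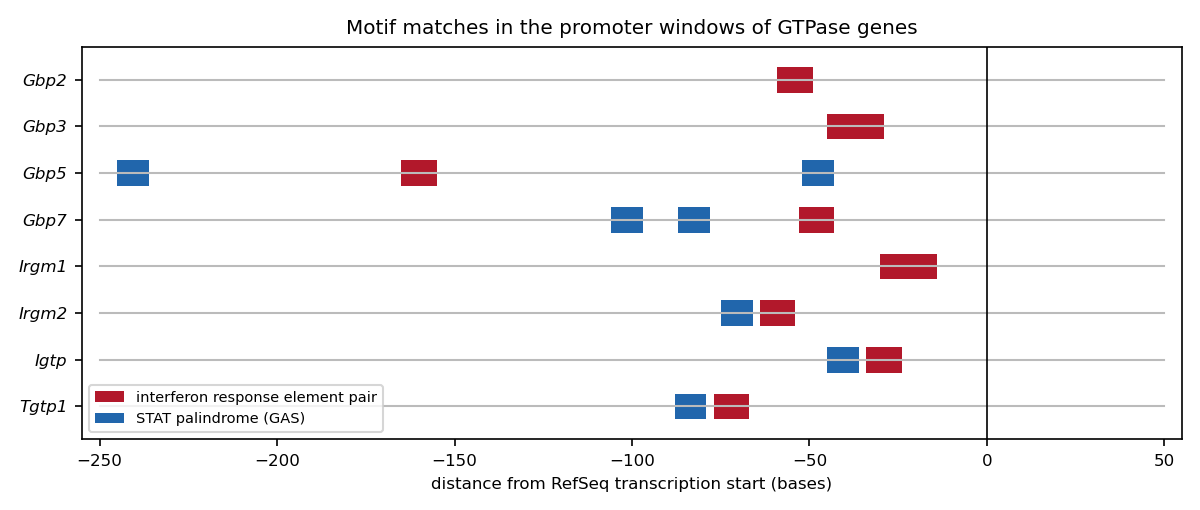
Positions of motif matches in the 300-base RefSeq promoter windows of the 8 GTPase genes that have one; the horizontal axis gives the distance from the annotated transcription start in bases, red bars mark the half-site pair and blue bars the palindrome, on either strand. The pair begins between 24 and 77 bases before the start in 7 genes and 165 bases before it in Gbp5.

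The 5 GBP genes lie in 2 clusters and the immunity-related GTPases in 3 places of the mm10 genome, by the GENCODE M21 annotation, and all 10 are protein-coding. On chromosome 3, plus strand, follow Gbp5 (ENSMUSG00000105504, 142493978 to 142522344), Gbp7 (ENSMUSG00000040253, 142530342 to 142550149), Gbp3 (ENSMUSG00000028268, 142560026 to 142573209) and Gbp2 (ENSMUSG00000028270, 142620602 to 142638008). Gbp4 (ENSMUSG00000079363) lies on chromosome 5, minus strand, 105115767 to 105139586. On chromosome 11 lie Irgm1 (ENSMUSG00000046879, minus strand, 48861968 to 48871683), Tgtp1 (ENSMUSG00000078922, minus strand, 48985327 to 48994172), Igtp (ENSMUSG00000078853, plus strand, 58199556 to 58207591) and Irgm2 (ENSMUSG00000069874, plus strand, 58199618 to 58222782). Iigp1 (ENSMUSG00000054072) lies on chromosome 18, plus strand, 60376027 to 60392634.

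Reads of near-identical genes can be lost or split in counting, so the overlap of these sequences was measured. Igtp shares 8.01% of its exon bases with Irgm2, and Irgm2 shares 4.39% of its own with Igtp. Tgtp1 shares 6.96% of its exon bases with Gm12185. Of all stretches of 50 bases in Tgtp1 transcripts, 81.2% also occur in another gene, 79.4% in Tgtp2. The same share was 12.7% for Gbp7, 11.8% for Igtp, 7.83% for Irgm2 and 7.78% for Gbp4, and between 0.379% and 3.75% for Gbp2, Gbp3, Gbp5, Irgm1 and Iigp1. Values of Tgtp1 are therefore uncertain, as are, to a lesser degree, those of Igtp and Irgm2 relative to each other.

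Depth was low. Gene counts ranged between 458608 and 673160 in BWF1 females, between 970263 and 4305003 in BWF1 males and between 879890 and 1310639 in the BALB/c group. The single gene Lars2 held 42.3% to 76.6% of them, and 1.29% to 2.82% of alignments fell in counted genes. Levels are given in CPM, counts brought to a common library total with TMM factors. On this scale 3 counts were worth 0.625 CPM in BWF1 male 3 and up to 6.62 CPM in BWF1 female 1, which is the limit that a count of 0 allows. Summed over the B cell markers, levels were 2164 to 2407 CPM in BWF1 females, against 2297 to 2890 CPM in BWF1 males and 3203 to 3247 CPM in the BALB/c group. The 13 macrophage markers, which include Adgre1 (F4/80) and Itgam (CD11b), summed to 236 to 260 CPM in BWF1 females, against 507 to 737 CPM in BWF1 males and 355 to 430 CPM in the BALB/c group. In all 9 libraries the B cell markers thus took more counts, with no correction for gene length, which goes against the sorted macrophages of the sample labels, and the material is called spleen here. In such bulk RNA, fewer cells of a type and less RNA per cell cannot be told apart. The 4 Y-linked genes checked had 0 counts in all female libraries. Some files carry the tag RL in their names (BWF1 females 1 and 3, BWF1 males 1 and 3) and the others the tag ORIG, including all BALB/c libraries. The labels do not explain it.

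As a family, the GTPases were expressed at similar levels in the 3 groups. The 10 genes together summed to between 181 and 190 CPM in BWF1 females, between 208 and 217 CPM in BWF1 males and between 206 and 235 CPM in the BALB/c group. On this scale all BWF1 females were below all libraries of both other groups by a small margin. The same held with DESeq2's size factors. It also held per total gene count without Lars2, at 435 to 457 CPM in BWF1 females, 467 to 512 CPM in BWF1 males and 482 to 556 CPM in BALB/c females. Per total gene count with Lars2, where that gene weighs most, BWF1 females (172 to 188 CPM) lay within the range of BWF1 males (109 to 238 CPM). They then lay below BALB/c females (228 to 321 CPM). The sum is carried by 8 genes, since Iigp1 and Tgtp1 were close to the detection limit.

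Per kilobase of exon not shared with other genes, Igtp had the highest mean level in BWF1 males, at 18.8 ± 1.1 CPM per kb (SD, n = 3 in every group), and its range lay above that of the next gene, Gbp2, at 10.7 ± 1.0 CPM per kb. Igtp also led in BALB/c females, with 12.7 ± 3.8 CPM per kb, above the range of Gbp4 at 7.11 ± 0.43 CPM per kb. In BWF1 females the order was different, with Gbp3 at 10.6 ± 4.4, Gbp2 at 9.56 ± 3.89 and Igtp at 7.76 ± 4.72 CPM per kb, and these neighbours overlapped. Gbp7, Gbp4, Irgm1 and Irgm2 followed in BWF1 females, at means between 3.52 and 5.17 CPM per kb, each overlapping the next. Gbp5 was the lowest of the 8 tested genes in each group, at 1.96 ± 0.33 CPM per kb in BWF1 females, against 2.49 ± 0.41 in BWF1 males and 3.50 ± 0.37 in the BALB/c group. Iigp1 and Tgtp1 stayed under 1 CPM per kb on average in each group. These orders depend on the annotated exon bases used as divisor, which were 1860 for Igtp, 7433 for Gbp4 and 6637 for Gbp5. The lengths of the transcripts present were not measured. In CPM without this division, Gbp4 was above Igtp in BALB/c females, at 52.9 ± 3.2 against 23.6 ± 7.1 CPM. Igtp then overlapped Irgm1 and Gbp4 in BWF1 males, and Gbp5 had the lowest mean of the tested genes in no group.

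**Figure D2:**
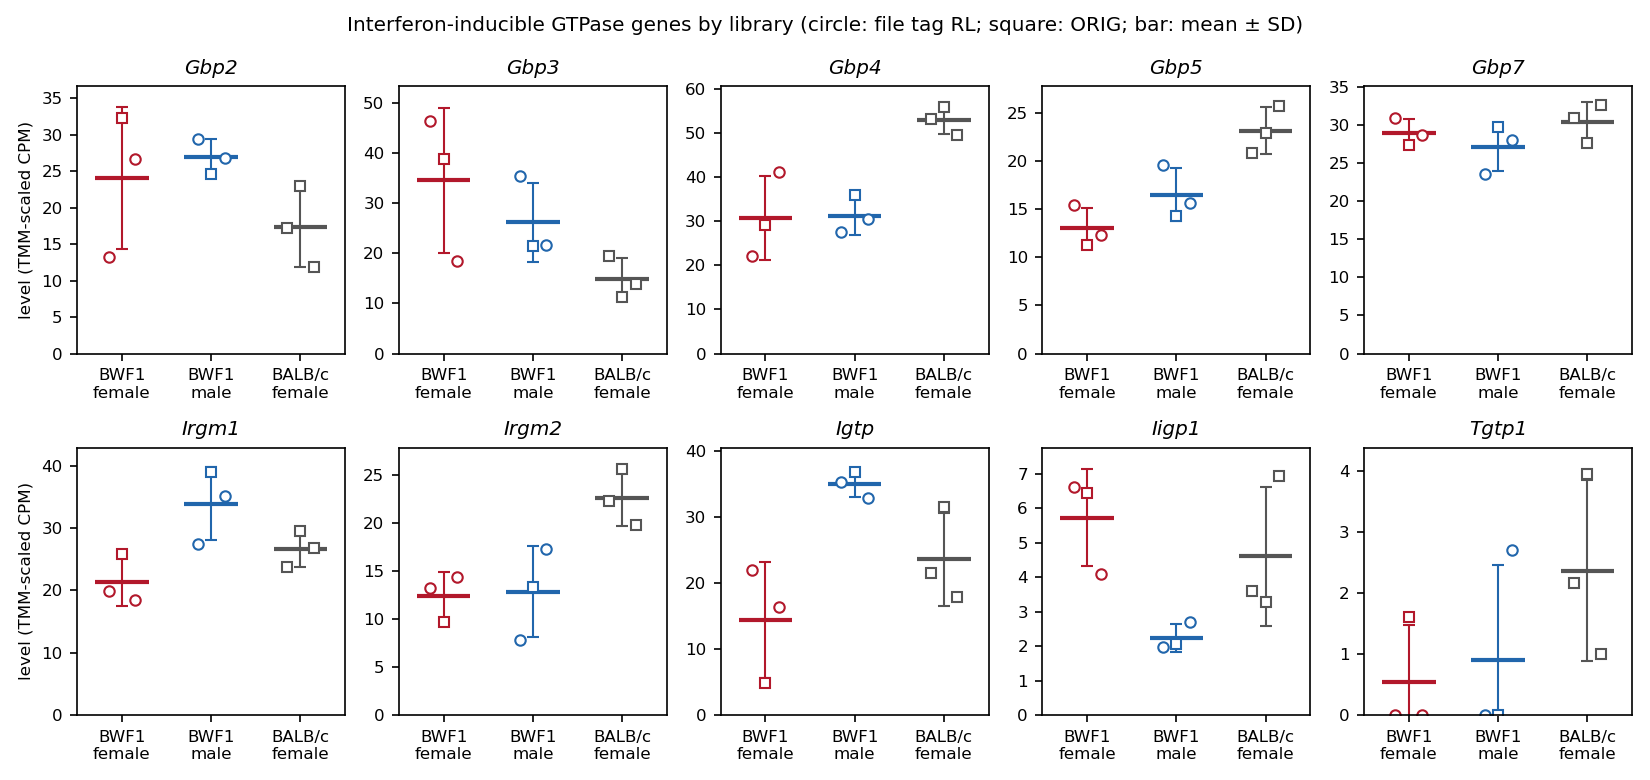
Level of each of the 10 GTPase genes in TMM-scaled CPM (vertical axes, from 0, a separate scale per gene) in BWF1 females, BWF1 males and the BALB/c group; circles are libraries with the file tag RL, squares those with ORIG, horizontal bars means and whiskers SD. Igtp in BWF1 males lies between 32.9 and 36.9 CPM, above each BWF1 female library, and Gbp4 in BALB/c females lies between 49.6 and 55.9 CPM, above each BWF1 library.

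BWF1 females and BWF1 males share the cross and differ in sex, so this contrast sets lupus-prone females against non-prone males of the same cross. Igtp, a regulatory GTPase of the cell's own membranes, was lower in females, and the other 7 tested members were not called. Of 8 members tested by edgeR's quasi-likelihood test, 0 were called higher and 1 lower at an adjusted p under 0.05, where 2.54% of all tested genes were called, 1.32% higher and 1.22% lower. An unadjusted p under 0.05 was reached by 2 members, Igtp and Irgm1, against 15.5% of all tested genes. The members' log2 fold changes had a median of -0.20 (-0.056 when libraries were scaled by total counts alone) and 6 of 8 were negative, beside a median of 0.00 and 49.8% negative over all tested genes.

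Igtp had 22.1, 4.84 and 16.4 CPM in BWF1 females 1 to 3, from 10, 3 and 8 counts, against 35.3, 36.9 and 32.9 CPM in BWF1 males 1 to 3, from 18, 36 and 158 counts. Every female was below every male, and female 2 was far below the other two females. The fitted log2 fold change was -1.34 (SE 0.35, 95% interval -2.05 to -0.62, adjusted p = 0.0321), which is 2.52-fold lower in females. The call rested on single libraries. Without female 2 the log2 fold change was -0.84 (adjusted p = 0.256), and the adjusted p was 0.0627 without female 3, 0.0681 without male 2 and 0.117 without male 3. Among RL libraries alone, Igtp had 16.4 and 22.1 CPM in BWF1 females, against 32.9 and 35.3 CPM in BWF1 males, and the log2 fold change of -0.82 had an adjusted p of 0.378.

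Irgm1, the regulator whose loss leaves mice unable to control mycobacteria, showed the same order of groups without passing the threshold. Its levels were 19.8, 25.8 and 18.5 CPM in BWF1 females, against 27.5, 39.0 and 35.2 CPM in BWF1 males. These ranges did not overlap, and the log2 fold change was -0.68 (SE 0.27, 95% interval -1.23 to -0.14, adjusted p = 0.187). Igtp and Irgm1 were the 2 tested members with all females below all males, where 18.7% of tested genes did not overlap in either direction and 9.68% had females below males. Irgm2, the third regulatory member, had 13.2, 9.68 and 14.4 CPM in BWF1 females, against 7.85, 13.3 and 17.3 CPM in BWF1 males, and these ranges overlapped (log2 fold change -0.31, adjusted p = 0.762).

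The ratio of Igtp to Irgm2 counts, looked at after the values were seen, was 1.67, 0.50 and 1.14 in BWF1 females, against 4.50, 2.77 and 1.90 in BWF1 males, and 0.968, 1.23 and 0.90 in the BALB/c group. All males were above all libraries of the other groups. Both genes share exon bases, and the counts behind these ratios are as few as 3.

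None of the 5 GBP genes was called between the sexes. Gbp3, of the chromosome 3 cluster, had 46.3, 38.7 and 18.5 CPM in BWF1 females, against 35.3, 21.5 and 21.7 CPM in BWF1 males (log2 fold change 0.55, 95% interval -0.06 to 1.16, adjusted p = 0.379). The other GBP genes had log2 fold changes of -0.30 for Gbp5, which promotes inflammasome assembly, -0.10 for Gbp2, which coats pathogen vacuoles, -0.03 for Gbp4 and 0.05 for Gbp7, with adjusted p-values between 0.745 and 0.991. Those of Gbp2 and Gbp4 turned positive, at 0.02 and 0.11, when libraries were scaled by total counts alone. The 95% interval of the Gbp7 difference ran from -0.46 to 0.56, so changes of less than about that size could not be told from 0. Iigp1, the effector that attacks vacuoles of Toxoplasma, had 3, 4 and 2 counts in BWF1 females, against 1, 2 and 13 counts in BWF1 males, which are 6.62, 6.45 and 4.11 CPM against 1.96, 2.05 and 2.71 CPM. The females were all higher on this scale, but 3 of these 6 libraries held 2 counts or fewer, so the gene was not tested.

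**Figure D3:**
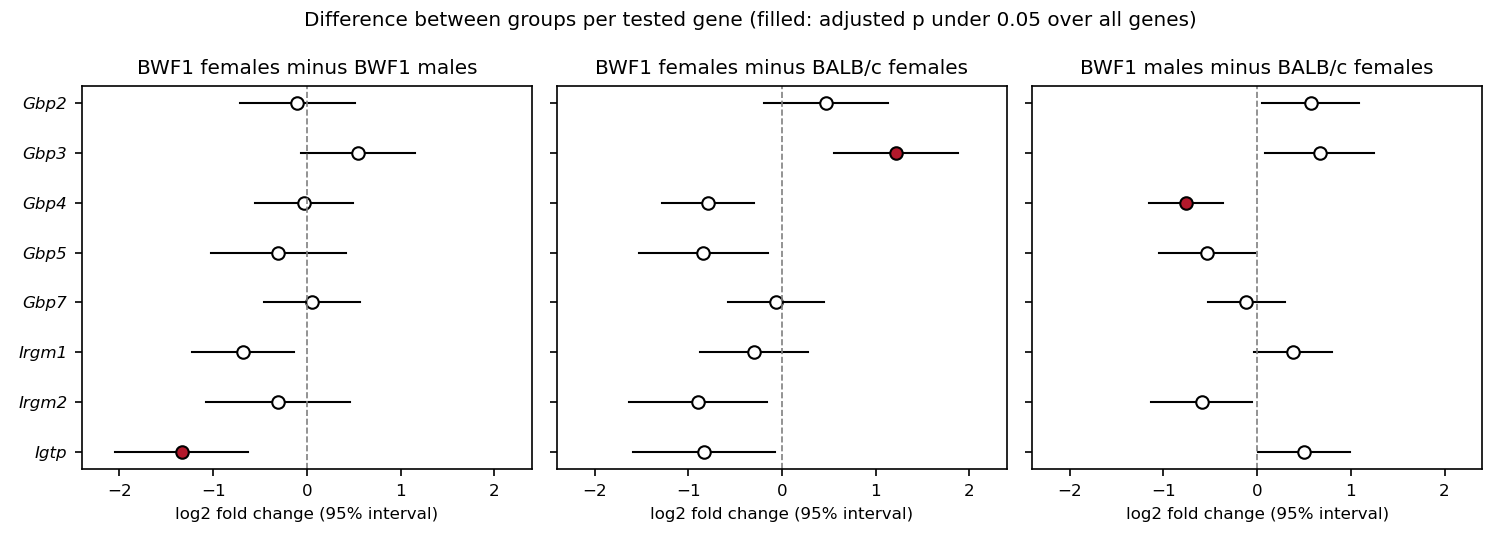
Log2 fold changes (points) with 95% intervals (lines) of the 8 tested GTPase genes for BWF1 females minus BWF1 males, BWF1 females minus BALB/c females and BWF1 males minus BALB/c females, from left to right; filled points had an adjusted p under 0.05 over all 7719 tested genes. One point is filled in each panel: Igtp at -1.34, Gbp3 at 1.22 and Gbp4 at -0.76.

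Summed markers of several cell types were lower in BWF1 females, as Igtp was, and some erythroid markers were higher. The 9 markers of natural killer and cytotoxic cells, all detected, summed to 127 to 163 CPM in BWF1 females, against 443 to 491 CPM in BWF1 males, and 6 of 8 tested were called lower in females. The 12 T cell markers summed to 355 to 465 CPM in BWF1 females, against 637 to 703 CPM in BWF1 males, with 6 of 11 tested called lower. The 13 macrophage markers summed to 236 to 260 CPM in BWF1 females, against 507 to 737 CPM in BWF1 males, with 6 of 11 called lower. The 7 monocyte markers summed to 284 to 314 CPM in BWF1 females, against 455 to 549 CPM in BWF1 males, with 1 of 7 called lower. The 6 plasma cell markers summed to 489 to 708 CPM in BWF1 females, against 1171 to 1979 CPM in BWF1 males, with 1 of 5 called lower. That marker was Jchain, at 392 ± 82 CPM in BWF1 females and 1239 ± 342 CPM in BWF1 males. The plasma cell list was split, with 3 of 5 tested log2 fold changes negative, a median of -0.20 and a highest value of 0.33. The 9 erythroid markers summed to 811 to 2302 CPM in BWF1 females, against 175 to 1308 CPM in BWF1 males, with 4 of 8 called higher. These sums overlapped, since BWF1 male 1 (1308 CPM) was above BWF1 females 1 and 2 (1045 and 811 CPM). Of these 8, DESeq2 called 0 and gave 3 no adjusted p, and limma-voom called 5. DESeq2 called 3 of 8 cytotoxic, 2 of 11 T cell and 3 of 11 macrophage markers. It gave 5, 8 and 8 of them no adjusted p. Limma-voom called 5, 5 and 6 of these 3 lists. No marker of these lists was at 0 in a whole group. The part of these markers in the Igtp result was not tested.

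BWF1 females and BALB/c females share sex and differ in strain. Gbp3 was higher in BWF1 females, while Gbp4, Gbp5 and Irgm2 had lower levels in every BWF1 female than in any BALB/c library without being called. Of 8 members tested, 1 was called higher and 0 lower, where 3.77% of all tested genes were called, 1.81% higher and 1.96% lower. An unadjusted p under 0.05 was reached by 5 members, against 15.9% of all tested genes. The members' median log2 fold change was -0.54 (-0.84 when libraries were scaled by total counts alone) with 6 of 8 negative, beside 0.00 and 50.2% negative over all tested genes.

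Gbp3 had 46.3, 38.7 and 18.5 CPM in BWF1 females 1 to 3, from 21, 24 and 9 counts, against 19.4, 11.2 and 13.9 CPM in the BALB/c group 1 to 3, from 27, 17 and 14 counts. The groups overlapped, since BWF1 female 3 was below BALB/c female 1. The log2 fold change was 1.22 (SE 0.33, 95% interval 0.55 to 1.88, adjusted p = 0.0264), which is 2.33-fold higher in BWF1 females. The adjusted p was 0.194 without BWF1 female 1, 0.158 without BWF1 female 2, 0.130 without BALB/c female 2 and 0.0626 without BALB/c female 3. With the file tag as a term the log2 fold change was 1.23 (adjusted p = 0.0986). Within the tag ORIG the single BWF1 female had 38.7 CPM, against 11.2 to 19.4 CPM in the 3 BALB/c libraries.

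Gbp4, the member on chromosome 5, had 22.1, 29.0 and 41.1 CPM in BWF1 females, against 53.2, 55.9 and 49.6 CPM in the BALB/c group. The groups did not overlap, and the log2 fold change of -0.79 (SE 0.24, 95% interval -1.27 to -0.30) had an adjusted p of 0.063. It was called when BWF1 female 3 was left out (log2 fold change -1.02, adjusted p = 0.0372). Gbp5 had 15.4, 11.3 and 12.3 CPM in BWF1 females, against 20.8, 23.0 and 25.8 CPM in the BALB/c group (log2 fold change -0.84, adjusted p = 0.195). Irgm2 had 13.2, 9.68 and 14.4 CPM in BWF1 females, against 22.3, 25.6 and 19.8 CPM in the BALB/c group (log2 fold change -0.90, adjusted p = 0.192). In each of these 3 genes all BWF1 females were lower, where 21.2% of tested genes did not overlap and 10.9% did so with BWF1 females below.

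The remaining members overlapped between these groups. Igtp had a log2 fold change of -0.84 (95% interval -1.59 to -0.08, adjusted p = 0.251), which became -0.34 without BWF1 female 2 and -0.56 when BALB/c female 2 was left out. Irgm1 had -0.30, Gbp7 -0.06 and Gbp2 0.47, with adjusted p-values between 0.511 and 0.937. Gbp7 was the steadiest member, with 30.9, 27.4 and 28.7 CPM in BWF1 females, against 23.5, 29.7 and 28.1 CPM in BWF1 males and 30.9, 27.6 and 32.7 CPM in the BALB/c group. In this strain contrast 10 of 12 tested early response and heat shock genes, such as Fos and Hspa1a, were called lower in BWF1 females, with sums of 844 to 986 CPM against 1868 to 3362 CPM in BALB/c females. Natural killer and cytotoxic markers summed to 127 to 163 CPM in BWF1 females, against 250 to 304 CPM in BALB/c females, with 2 of 8 tested called lower. B cell markers (2164 to 2407 CPM in BWF1 females, against 3203 to 3247 CPM in BALB/c females) had 4 of 9 called lower, monocyte markers (284 to 314 CPM against 609 to 640 CPM) 2 of 7 and macrophage markers (236 to 260 CPM against 355 to 430 CPM) 1 of 11. T cell markers (355 to 465 CPM against 411 to 604 CPM) had 2 of 11 called lower. Stromal and endothelial markers (170 to 211 CPM against 197 to 233 CPM) had 1 of 5 called lower. Neutrophil markers (182 to 392 CPM against 271 to 376 CPM) had 1 of 6 called lower and 1 higher. The part of these markers in the members' values was not tested. Reads of both strains were aligned to mm10, so that a strain difference in level and one in how well reads align cannot be told apart.

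BWF1 males and BALB/c females differ in strain and sex together. Gbp4 was lower in BWF1 males, and the other members divided into some with higher and some with lower levels. Of 8 members tested, 0 were called higher and 1 lower, where 6.27% of all tested genes were called, 2.75% higher and 3.52% lower. An unadjusted p under 0.05 was reached by 6 members, against 19.6% of all tested genes. The median log2 fold change was 0.13 (-0.30 when libraries were scaled by total counts alone) with 4 of 8 negative, beside 0.00 and 50% negative over all tested genes. Groups did not overlap for 6 members, 3 with males above and 3 with males below, where 23.5% of tested genes did not overlap and 11.9% had males below.

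Gbp4 had 27.5, 35.9 and 30.4 CPM in BWF1 males 1 to 3, from 14, 35 and 146 counts, against 53.2, 55.9 and 49.6 CPM in the BALB/c group 1 to 3, from 74, 85 and 50 counts. All males were below all BALB/c libraries. The log2 fold change was -0.76 (SE 0.19, 95% interval -1.15 to -0.36, adjusted p = 0.0138), which is 1.69-fold lower in BWF1 males. The adjusted p was 0.193 without BWF1 male 3 and 0.0778 without BALB/c female 2. With the file tag as a term the log2 fold change was -0.67 (adjusted p = 0.256), and the 1 BWF1 male with the tag ORIG had 35.9 CPM, against 49.6 to 55.9 CPM in BALB/c females.

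Gbp5 and Irgm2 were lower in every male than in any BALB/c library, with log2 fold changes of -0.53 (adjusted p = 0.22) and -0.59 (adjusted p = 0.192). Gbp2, Gbp3 and Igtp were higher in every male, with log2 fold changes of 0.57 (adjusted p = 0.20), 0.67 (adjusted p = 0.174) and 0.50 (adjusted p = 0.245). Gbp2 had 29.4, 24.6 and 26.9 CPM in BWF1 males, against 17.2, 23.0 and 11.9 CPM in the BALB/c group. The BWF1 females ranged more widely for this gene, at 13.2, 32.3 and 26.7 CPM. The levels of Irgm1 (log2 fold change 0.38, or -0.06 when scaled by total counts alone) and Gbp7 (-0.12) overlapped between BWF1 males and BALB/c females. None of these 7 members was called. In this contrast 5 of 8 tested cytotoxic markers (443 to 491 CPM summed in BWF1 males, against 250 to 304 CPM in BALB/c females) and 8 of 11 macrophage markers (507 to 737 CPM against 355 to 430 CPM) were called higher in males. Early response and heat shock genes summed to 1000 to 1406 CPM in BWF1 males, against 1868 to 3362 CPM in BALB/c females, with 8 of 12 called lower. Plasma cell markers (1171 to 1979 CPM in BWF1 males, against 548 to 720 CPM in BALB/c females) had 4 of 5 called higher. T cell markers (637 to 703 CPM against 411 to 604 CPM) had 2 of 11 called higher. Neutrophil markers (287 to 675 CPM against 271 to 376 CPM) had 1 of 6 called higher. Called lower in males were 6 of 8 erythroid markers (175 to 1308 CPM against 1251 to 3761 CPM), 2 of 9 B cell markers (2297 to 2890 CPM against 3203 to 3247 CPM) and 1 of 7 monocyte markers (455 to 549 CPM against 609 to 640 CPM). So were 2 of 5 stromal and endothelial markers (147 to 173 CPM against 197 to 233 CPM). The part of these in the members' values was not tested.

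Gbp3 and Gbp4 had opposite orders of the groups between the strains. The ratio of Gbp3 to Gbp4 counts, also examined after the values were seen, was 2.10, 1.33 and 0.45 in BWF1 females, against 1.29, 0.60 and 0.712 in BWF1 males and 0.365, 0.20 and 0.28 in the BALB/c group. All 6 BWF1 libraries were above all 3 BALB/c libraries. Both strain comparisons use the same BALB/c libraries and are not independent. Over the 9 libraries, Gbp3 and Gbp4 had the lowest correlation of any member pair (Pearson r = -0.914 on log2 CPM), and Gbp4 and Irgm2 the highest (r = 0.785). These values describe libraries of 3 groups that also differ in depth, and the points within a group share strain and sex.

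Tgtp1, an effector GTPase, was close to the detection limit, with 0, 1 and 0 counts in BWF1 females, against 0, 0 and 13 in BWF1 males and 3, 6 and 1 in the BALB/c group. A count of 0 allows up to 6.62 CPM in BWF1 female 1 and 6.16 CPM in BWF1 female 3, and up to 5.88 and 3.08 CPM in BWF1 males 1 and 2. Since most Tgtp1 sequence also occurs in Tgtp2, counts of both were added, a step chosen after the values were seen. The pair then had 0, 6.45 and 2.05 CPM in BWF1 females and 0, 4.10 and 4.37 CPM in BWF1 males, against 11.5, 8.54 and 8.92 CPM in the BALB/c group. The BALB/c libraries were above the 6 BWF1 libraries, but 5 of those 6 held 4 counts or fewer and the pair was not tested. Iigp1 had 5, 5 and 7 counts in BALB/c females, or 3.59, 3.29 and 6.94 CPM, against which the BWF1 males (1.96 to 2.71 CPM) were lower and the BWF1 females (4.11 to 6.62 CPM) overlapped.

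Other genes of the pathway were set beside the members. Of 17 further interferon-inducible GTPases listed, 14 were counted and 5 tested, and edgeR called 0 in each comparison, while an unadjusted p under 0.05 was reached by 1 of the 5 between the sexes, by 2 between BWF1 and BALB/c females and by 4 between BWF1 males and BALB/c females. DESeq2 also called 0, and gave no adjusted p to these 5 between the sexes, and limma-voom called 9930111J21Rik2 lower in BWF1 males than in BALB/c females. Ifi47, an immunity-related GTPase beside Tgtp2 on chromosome 11, had the same order of groups as Igtp and Irgm1 between the sexes, at 25.1 ± 1.2 CPM in BWF1 females and 40.6 ± 7.2 CPM in BWF1 males, where all females were below all males (log2 fold change -0.69, adjusted p = 0.185), and it stood at 25.3 ± 7.5 CPM in BALB/c females. Gbp9, the neighbour of Gbp4, had 39.8 ± 3.0 CPM in BWF1 females, against 34.4 ± 9.7 CPM in BWF1 males and 48.2 ± 3.7 CPM in the BALB/c group and was not called.

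Ifng itself was near the detection limit, with 2.35 ± 2.42 CPM in BWF1 females, against 2.27 ± 1.56 CPM in BWF1 males and 5.37 ± 2.76 CPM in the BALB/c group, and was not tested. Tbx21 and Eomes, the transcription factors that drive its production, were higher in BWF1 males than in BALB/c females. Tbx21 averaged 22.5 ± 3.4 CPM in BWF1 males and 13.3 ± 0.5 CPM in the BALB/c group (log2 fold change 0.85, adjusted p = 0.041), and Eomes 27.5 ± 0.9 CPM in BWF1 males and 15.6 ± 5.7 CPM in the BALB/c group (log2 fold change 0.89, adjusted p = 0.0306). These were 2 of the 4 tested genes of the ligand and inducer list, and limma-voom called both, whereas DESeq2 called 0 of the 4. In both other comparisons edgeR called 0 of the 4, with 1 and 0 at an unadjusted p under 0.05.

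Of 10 tested receptor and signalling genes, 0 were called in each comparison by edgeR, DESeq2 and limma-voom. By edgeR, 1 had an unadjusted p under 0.05 between the sexes, 0 between BWF1 and BALB/c females and 1 between BWF1 males and BALB/c females. The receptor chain Ifngr1 had 46.3 ± 14.6 CPM in BWF1 females and 78.3 ± 5.8 CPM in BWF1 males, with all females below all males (log2 fold change -0.72, adjusted p = 0.0747). Ifngr2 (25.8 ± 1.4 CPM in BWF1 females, 28.2 ± 5.0 in BWF1 males, 35.5 ± 0.6 in BALB/c females), Jak1, Jak2, Irf1 and Irf8 had log2 fold changes between -0.47 and 0.04 over the 3 comparisons, with adjusted p-values of 0.374 or more. Socs1, the feedback inhibitor of the receptor, averaged 5.48 CPM in BWF1 females, against 6.58 CPM in BWF1 males and 7.23 CPM in the BALB/c group and was not tested.

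Among 19 tested targets of interferon-gamma outside the GTPases, 2 antigen presentation genes differed by sex. B2m, the light chain of MHC class I, averaged 499 ± 96 CPM in BWF1 females and 795 ± 103 CPM in BWF1 males (log2 fold change -0.68, adjusted p = 0.0229). Cd74, the invariant chain of MHC class II, averaged 3325 ± 188 CPM in BWF1 females and 5158 ± 619 CPM in BWF1 males (log2 fold change -0.63, adjusted p = 0.0431). They were the 2 called lower in females, and 0 were called higher. Nlrc5 and Ciita, the transactivators of MHC class I and II, were not called, with log2 fold changes of 0.50 (adjusted p = 0.182) and -0.16 (adjusted p = 0.671), and Cd274 (PD-L1) had 0.46 (adjusted p = 0.407). Between BWF1 females and BALB/c females 0 of the 19 passed in edgeR, in limma-voom or in DESeq2, with 6 at an unadjusted p under 0.05.

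The chemokine Cxcl9, a gene induced mainly by interferon-gamma, was the 1 of 19 called by edgeR between BWF1 males and BALB/c females. It averaged 3.19 ± 2.58 CPM in BWF1 males and 10.4 ± 2.3 CPM in the BALB/c group (log2 fold change -2.10, adjusted p = 0.0102). These means rest on 14 counts over all BWF1 males and 41 over the BALB/c group, so Cxcl9 was close to the detection limit in males. BWF1 females averaged 4.69 ± 4.83 CPM, from 7 counts, and overlapped both other groups. In this comparison limma-voom called Cxcl9 and Cd74, and DESeq2 called Cd74 but not Cxcl9. Cxcl10 had 0 counts in all BWF1 female libraries and averaged 3.48 ± 1.32 CPM in BWF1 males and 1.25 ± 0.23 CPM in the BALB/c group, values that lie under the 4.84 to 6.62 CPM that a count of 0 allows in the females. The 16 tested genes for vacuole targeting and inflammasomes had 0 calls by edgeR, DESeq2 or limma-voom in each comparison. By edgeR, 1 had an unadjusted p under 0.05 between the sexes, 4 between BWF1 and BALB/c females and 1 between BWF1 males and BALB/c females.

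Type I interferon-stimulated genes, of which 17 of 30 were tested, included 2 genes called by edgeR. Rsad2 (viperin), an antiviral enzyme, was higher in BWF1 females, at 41.2 ± 8.8 CPM, than in BWF1 males, at 13.9 ± 16.8 CPM (log2 fold change 2.47, adjusted p = 0.0052). Rsad2 was lower in BWF1 males than in BALB/c females, at 33.9 ± 22.5 CPM (log2 fold change -2.26, adjusted p = 0.0012). By library Rsad2 had 35.3, 37.1 and 51.3 CPM in BWF1 females, 33.3, 4.10 and 4.37 CPM in BWF1 males and 26.6, 59.1 and 15.9 CPM in the BALB/c group. The summed erythroid markers had 1045, 811 and 2302 CPM in the same BWF1 females, 1308, 183 and 175 CPM in the males and 1251, 3761 and 1539 CPM in the BALB/c group. In each group the library highest for Rsad2 was also the highest for erythroid markers, whose part in the Rsad2 result was not tested. Irf7, the transcription factor that amplifies type I interferon, was lower in BWF1 females, at 12.7 ± 4.8 CPM, and in BWF1 males, at 14.6 ± 5.4 CPM, than in BALB/c females, at 28.8 ± 5.0 CPM (adjusted p = 0.0483 and 0.0205). No other gene of that list was called by edgeR. DESeq2 called 0 of the 17 in each comparison and gave 10 of them no adjusted p between the sexes. By limma-voom, Rsad2 was called in both comparisons with BWF1 males and Irf7 between BWF1 males and BALB/c females, and 0 were called between BWF1 and BALB/c females.

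**Figure D4:**
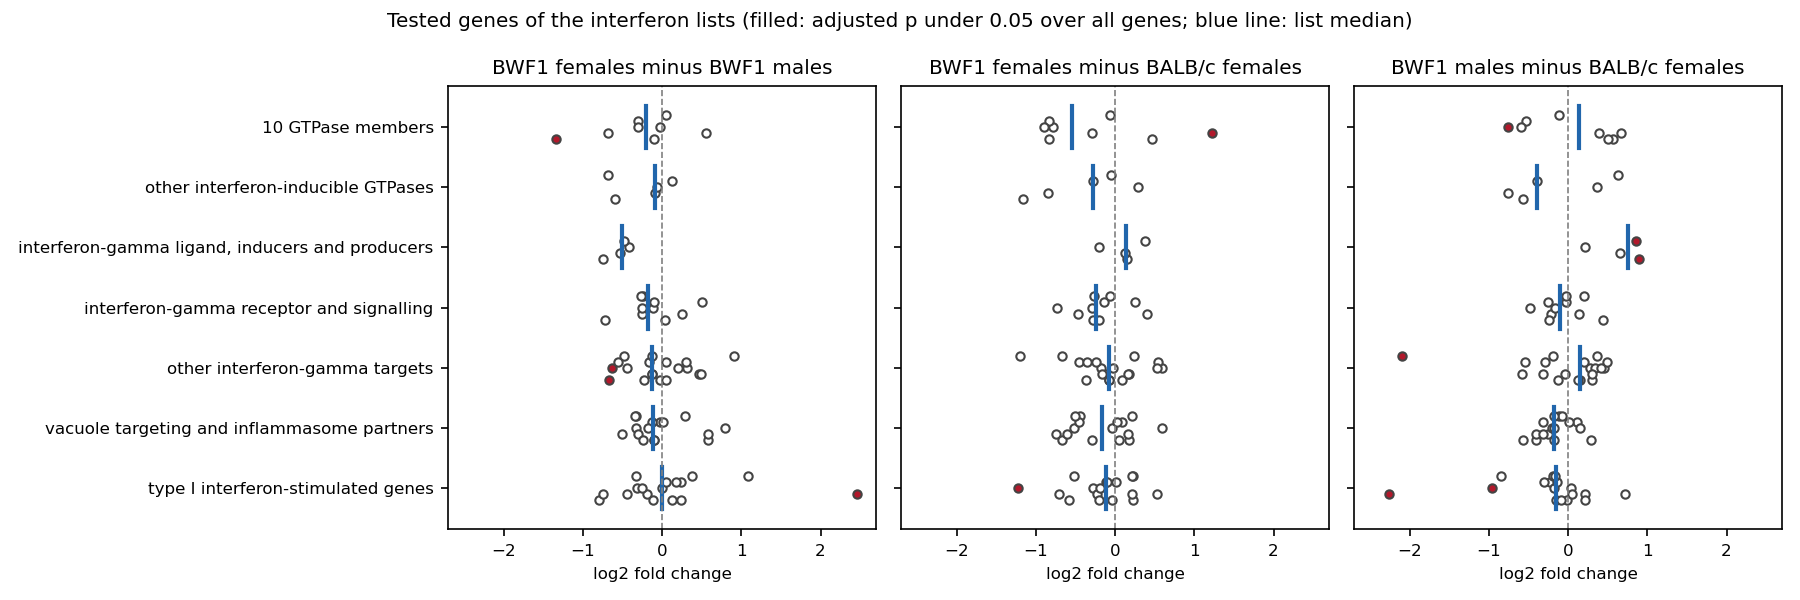
Log2 fold changes of all tested genes of the GTPase family and of 6 interferon lists (rows) for BWF1 females minus BWF1 males, BWF1 females minus BALB/c females and BWF1 males minus BALB/c females (panels from left to right); filled points had an adjusted p under 0.05 over all tested genes and blue lines are list medians. The medians of the 10-gene family are -0.20, -0.54 and 0.13, and the farthest filled points are Rsad2 at 2.47 and -2.26 and Cxcl9 at -2.10.

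**Figure D5:**
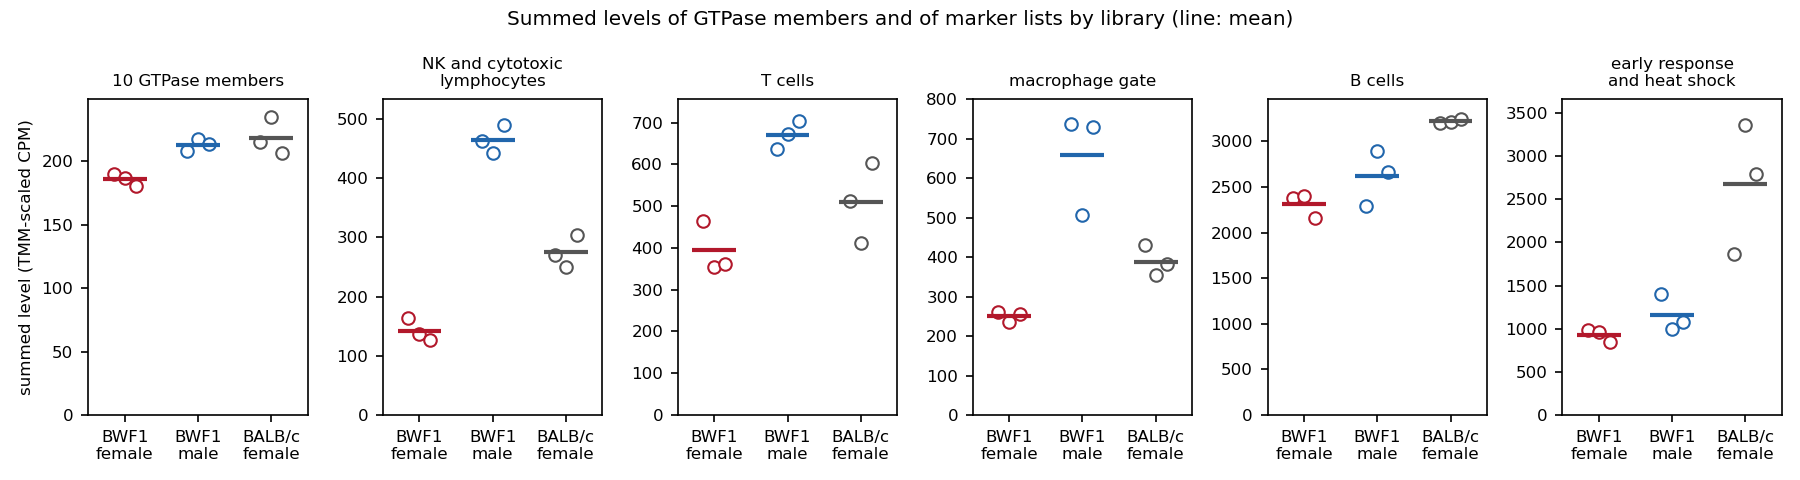
Summed TMM-scaled CPM per library (circles) and group mean (line) for the 10 GTPase genes and for marker lists of natural killer and cytotoxic lymphocytes, T cells, macrophages, B cells and early response and heat shock genes, in BWF1 females, BWF1 males and the BALB/c group; each vertical axis starts at 0. The GTPase sums lie between 181 and 235 CPM in all 9 libraries, whereas cytotoxic markers lie at 127 to 163 CPM in BWF1 females, against 443 to 491 CPM in BWF1 males and 250 to 304 CPM in the BALB/c group.

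The genes whose pattern over the 9 libraries was most like the family's mean log2 level, among 4764 tested genes with a mean of at least 20 CPM, were Gpr107 (Pearson r = 0.916), Cdkn1b (0.914), Cd82 (0.902), Sdc3 (0.902) and Tbl1x (0.883). The family's mean ran from 4.35 to 4.50 in BWF1 females, from 4.67 to 4.74 in BWF1 males and from 4.59 to 4.80 in BALB/c females on the log2 CPM scale. These correlations rank 4764 genes over 9 libraries and are given as a description.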

How the data were processed

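The authors deposited unnormalized gene counts, in single files for the 9 libraries and in a joint table that differed from them in 0 values. The submitters' processing notes list STAR 2.6, FastQC 0.10.1 and mm10. Annotation release, strand setting and filters of the counting are not given in the sources used here, so overlapping genes cannot be told apart by strand. Of 21965 identifiers, 21939 matched GENCODE M21 symbols.

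Counts were analysed in R 4.3.3 with edgeR 4.0.16: filterByExpr with a minimum count of 10 kept 7719 genes, TMM factors (0.530 to 1.40) scaled the libraries, and 3 contrasts were tested in a quasi-likelihood fit of all 9 libraries with Benjamini-Hochberg adjustment over all tested genes. Genes were called at an adjusted p under 0.05. The SE is the size of the log2 fold change over the square root of F, and 95% intervals use it. Floors cover counting error only, since reads carried no molecular identifiers. The labels number the libraries within groups and give 3 mice per group, so p-values measure the spread between these libraries. Replicates differed beyond counting error (chi-square over its degrees of freedom, 1.23 to 2.60), so 0 libraries were merged. Alternatives were DESeq2 1.42.0, limma-voom (limma 3.58.1), other scalings and filters, a replicate block, the file tag, and leaving out each library. Only the main edgeR fit was run on simulated counts with set changes, and the other tools and steps were not. Members and gene lists were chosen with earlier results of these data known. All members were named, with pathway genes that were called and a fixed set of signalling genes. A further gene of that set is not reported here.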

Additional observations from a re-analysis of the deposited data

How the results depend on the processing

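Depth limits the precision, since members rested on 0 to 38 counts per library outside BWF1 male 3 and BALB/c libraries 1 to 3. Of 468 member values under the 21 other settings, 441 kept direction and side of the threshold. Of the rest, 17 lost their call, 1 gained one and 9 changed sign, and the cause was not tested. Most of the 468 were not called to begin with, and every loss fell on a called member. Igtp (BWF1 females against males) kept its call in 14 of 20 settings. Gbp3 (BWF1 against BALB/c females) kept it in 12 of 19 and Gbp4 (BWF1 males against BALB/c females) in 16 of 20. Libraries scaled by total counts alone move the median gene by 0.15, -0.29 and -0.43 (log2) in the comparisons BWF1 females minus BWF1 males, BWF1 females minus BALB/c females and BWF1 males minus BALB/c females.

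Calls over all genes between BWF1 females and BWF1 males (196, 102 higher and 94 lower) were 53 (42 higher, 11 lower) by total counts alone, 297 with no filter, 105 by DESeq2 and 48 to 235 without single libraries. Between BWF1 females and BALB/c females (291, 140 higher and 151 lower) they were 115 (23 higher, 92 lower) by total counts alone, 169 by DESeq2, 155 with the file tag and 182 to 338 without single libraries. Between BWF1 males and BALB/c females (484, 212 higher and 272 lower) they were 271 (27 higher, 244 lower) by total counts alone, 318 at a minimum count of 30, 196 by DESeq2, 189 with the file tag and 181 to 638 without single libraries.

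The 1 member called in each comparison became 0 by total counts alone in both comparisons with BWF1 females, 0 in RL libraries (BWF1 females against males), 0 at a minimum count of 30, which removes Gbp3 (BWF1 against BALB/c females), 0 by DESeq2 in both comparisons with BALB/c females and 0 there with the file tag. Between BWF1 females and males DESeq2 gave no member an adjusted p. Without single libraries the members called were 0 to 1, 0 to 2 and 0 to 1. Over its alternatives, the adjusted p ran from 0.0034 to 0.467 for Igtp (BWF1 females against males), from 0.0045 to 0.414 for Gbp3 (BWF1 against BALB/c females) and from 0.0074 to 0.256 for Gbp4 (BWF1 males against BALB/c females).

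Sign changes touched no called member. Between BWF1 females and males, the log2 fold change of Gbp2 (-0.10) was 0.021 by total counts alone, that of Gbp4 (-0.03) was 0.11 by total counts alone and 0.086 in RL libraries, and without single libraries they ran from -0.41 to 0.15 for Gbp2, from -0.27 to 0.13 for Gbp4 and from -0.44 to 0.10 for Irgm2 (-0.31). Between BWF1 males and BALB/c females, that of Irgm1 (0.38) was -0.060 by total counts alone. Replicate numbers gave no sign of pairing the samples. Same-numbered libraries correlated at -0.0912 to 0.0589 in their deviations, and 1 of 9 correlated best with its own number. At this depth such correlations cannot exclude a weak pairing. With the replicate block the calls over all genes were 132, 253 and 370 in the comparisons as ordered above, and 1 member was called in each.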
